A study of Mus musculus with 4 samples.

Results

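The regions described here are accessible distal regions that lie far from any promoter. From the authors' list of distal regions, each 1000 bases wide, those were taken whose nearest edge lay more than 200 kb from the nearest region of the authors' promoter list on the same chromosome, on autosomes. The rule gave 19165 of 142588 autosomal distal regions (13.4%), and the other 123423 served as the nearer regions. No read value entered the choice. They are called far regions below.

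The reads came from single-nucleus ATAC-seq, in which the Tn5 transposase tags open chromatin and barcodes tell the nuclei apart, of wild-type CD1 mice, an outbred strain. Mammary cells were sorted as EpCAM+ and Lin-, from fetuses at embryonic day 18 and from adults at 8 weeks, with 2 biological replicates per stage. Both stages share the strain, the sort and the genotype, with no treatment and no transgene, and whether animals were pooled is not given in the labels. The deposited table put each nucleus in 1 of 14 clusters, called classes here, and no nucleus barcode was shared between libraries.

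Distal accessible regions include enhancers, short stretches where transcription factors bind and from which they can raise the transcription of a gene through a loop of the chromatin fibre. Enhancers of developmental transcription factor genes are known to lie at long distances from their promoters, also inside introns of other genes and in intervals without genes. In the mammary gland the epithelium consists of basal cells, which are contractile and express Trp63 and Krt5, luminal progenitors, which give rise to milk-secreting cells, and hormone-sensing mature luminal cells, which express Esr1 and Pgr.

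Class names rest on reads over marker genes and their flanks of 2000 bases. Classes 1 and 8 of the adult were raised at 9 of 9 basal markers each and are called basal-like. Classes 3 and 7 were raised at 7 of 8 luminal progenitor markers, and classes 2 and 11 at 7 and 6 of 8 mature luminal markers. In the fetus class 4 was raised at 6 of 9 basal markers, and classes 9 and 5 at 7 and 6 of 8 luminal progenitor markers. Class 6 was raised at 7 of 7 stromal markers and 0 of 5 general luminal markers, which goes against the epithelial sort. The classes are clusters of the same nuclei, so differences between classes are partly set by the clustering. Depth ran from 6028168 to 19304830 reads in 882 to 2804 nuclei per library, with fetal library 1 the lowest in total reads. Median reads per nucleus were 5535.5 and 7488 in fetal libraries 1 and 2 and 4420 and 5457.5 in adult libraries 1 and 2.

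The position of the far regions shows what the promoter list leaves out. Of the far regions, 6752 (35.2%) lay inside the span of a protein-coding gene, against 57.2% of the nearer regions. Another 2344 (12.2%) lay inside a long non-coding RNA gene alone, and 10069 (52.5%) in neither, against 34.0% of nearer regions. The median distance to an end of a protein-coding gene was 222 kb, against 18 kb for nearer regions. The promoter list touches an end of 10946 of 20661 autosomal protein-coding genes (53.0%), so "far" here means far from a promoter that the authors listed. By the stricter reading, 10843 far regions (56.6%) were also more than 200 kb from every end of a protein-coding gene, while 745 (3.89%) lay within 10 kb of one.

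A far region can therefore hold an annotated start that the promoter list does not. RefSeq starts fell in 297 far regions, 83 of them starts of protein-coding genes. The windows of 250 bases before 6 such protein-coding starts follow, because they are sequences at far regions that the RefSeq tables hold. They were chosen, after their values were seen, as the called ones with the highest accessibility. Capitals mark matches on either strand to 1 of 7 motif cores: AP-1 (TGANTCA), SOX (ACAAAG), ETS (GGAAGT), TEAD (GGAATG), FOX (TGTTTAC), the core of the NFI site (TTGGCA) and GRHL (AACCNGTT). No core is a part of another, and no printed match overlaps another.
Pde4b: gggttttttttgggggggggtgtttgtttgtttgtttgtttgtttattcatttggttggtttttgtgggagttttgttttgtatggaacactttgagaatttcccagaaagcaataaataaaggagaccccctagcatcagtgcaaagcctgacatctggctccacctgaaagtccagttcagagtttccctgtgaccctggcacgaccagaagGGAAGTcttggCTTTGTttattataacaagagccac
Magi1: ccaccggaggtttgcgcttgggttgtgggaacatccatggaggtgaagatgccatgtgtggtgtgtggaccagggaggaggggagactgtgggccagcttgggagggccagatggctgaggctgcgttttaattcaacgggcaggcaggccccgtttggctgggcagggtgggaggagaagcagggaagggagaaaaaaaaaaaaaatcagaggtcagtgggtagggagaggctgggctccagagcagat
Nrxn3: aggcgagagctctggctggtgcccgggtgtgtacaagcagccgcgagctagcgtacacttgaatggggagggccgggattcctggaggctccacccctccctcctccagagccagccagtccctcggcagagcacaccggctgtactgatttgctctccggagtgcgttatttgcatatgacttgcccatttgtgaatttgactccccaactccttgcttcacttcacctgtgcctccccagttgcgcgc
Vav3: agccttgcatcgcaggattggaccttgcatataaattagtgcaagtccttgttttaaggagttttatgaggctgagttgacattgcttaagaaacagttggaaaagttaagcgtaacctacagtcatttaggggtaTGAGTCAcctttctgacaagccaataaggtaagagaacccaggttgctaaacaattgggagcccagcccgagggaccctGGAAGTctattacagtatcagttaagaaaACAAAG
Btbd11: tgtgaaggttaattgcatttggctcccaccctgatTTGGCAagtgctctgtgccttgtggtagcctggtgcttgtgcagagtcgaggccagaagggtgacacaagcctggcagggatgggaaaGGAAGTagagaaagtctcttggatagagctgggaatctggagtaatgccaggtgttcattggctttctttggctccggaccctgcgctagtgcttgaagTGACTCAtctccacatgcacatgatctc
Creb5: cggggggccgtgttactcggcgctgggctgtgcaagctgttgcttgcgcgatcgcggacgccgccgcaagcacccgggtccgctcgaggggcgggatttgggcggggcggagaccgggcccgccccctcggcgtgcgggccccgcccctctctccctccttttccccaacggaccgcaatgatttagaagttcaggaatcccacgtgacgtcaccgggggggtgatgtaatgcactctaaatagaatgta

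The sequences are RefSeq's, from GRCm38.p6, whose chromosomes are those of mm10, and read from 5′ to 3′. They lie at chr4:102569810-102570059 for Pde4b, chr6:93912964-93913213 on the minus strand for Magi1, chr12:89812233-89812482 for Nrxn3, chr3:109573757-109574006 for Vav3, chr10:85598161-85598410 for Btbd11 and chr6:53287053-53287302 for Creb5, on the plus strand unless stated. The Pde4b window holds an ETS and a SOX core, the Vav3 window an AP-1, an ETS and a SOX core, and the Btbd11 window an NFI core, an ETS core and an AP-1 core. The Magi1, Nrxn3 and Creb5 windows hold none of the 7. Over all 32851 RefSeq windows of this length the AP-1 core occurs in 6.75%, and over the 297 with a start in a far region in 11.8%. The shares are 16.5% and 20.9% for SOX, 19.7% and 21.5% for ETS, 12.6% and 16.5% for TEAD, 3.17% and 4.04% for FOX, 12.3% and 11.8% for NFI, and 1.79% and 3.37% for GRHL. The median GC content is 52.4% over all windows and 49.6% over those in far regions, so base composition differs too. A match is a description of the letters, and the factors were not measured.

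MicroRNA hairpins form a second kind of annotated sequence in these intervals. RefSeq hairpins lay within 2 kb of 31 far regions, 23 hairpins in all. The mature sequences shown belong to the Mir125b-1 and Mir100 hairpins, where at least 1 region each differed between cell classes, and to Mir802, whose region differed between stages. These hairpins were chosen after their values were seen. Regions at other hairpins differed as well, such as Mir3072 and Mir1904 between classes and Mir329 and Mir377 between stages. Capitals mark the seed, bases 2 to 8, with which a microRNA pairs to its targets, and no 2 of these seeds are the same.
mmu-miR-125b-5p: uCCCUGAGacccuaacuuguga
mmu-miR-125b-1-3p: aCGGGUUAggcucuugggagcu
mmu-miR-100-5p: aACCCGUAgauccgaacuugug
mmu-miR-100-3p: aCAAGCUUgugucuauagguau
mmu-miR-802-5p: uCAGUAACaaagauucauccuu

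In every library the far regions held a smaller share of the reads than of the regions. With 13.4% of the autosomal distal regions, they held 11.3% and 11.8% of the autosomal distal reads of the fetus and 9.54% and 10.3% of those of the adult. Exact binomial 95% intervals, which cover counting error only, were 11.3 to 11.38%, 11.77 to 11.82%, 9.519 to 9.567% and 10.27 to 10.31%. Both fetal libraries were above both adult ones, and the means were 11.6% ± 0.321 (SD, n = 2) and 9.92% ± 0.531 (SD, n = 2). Median reads per nucleus ranked the libraries in the same order as the far share, and the part of depth was not tested. The difference of 1.65 percentage points had a two-sided exact permutation p of 0.33, the smallest that 2 libraries against 2 can give.

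A region on chromosome 17 carried an unusual part of these reads. The region at chr17:39844166-39845165 lies 1.19 kb from Rn18s-rs5, annotated as a pseudogene of the 18S ribosomal RNA, and 271 kb from the nearest listed promoter region. Of all far reads it held 5.74% and 3.57% in the fetus and 9.20% and 6.91% in the adult. The next far region by reads, at chr3:5860049-5861048, 281 kb from Pex2, held 0.571% of far reads over all libraries. Without the chromosome 17 region the far shares were 10.8%, 11.4%, 8.74% and 9.65%, and the stage difference was 1.89 points. Whether its reads come from that copy alone was not tested. The per-region, flank and class values below include it unless they are said to leave it out.

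Per region, a far region had 14.2, 38.4, 28.3 and 41.1 reads on average in fetal libraries 1 and 2 and adult libraries 1 and 2. That was 0.823, 0.861, 0.679 and 0.739 times the average of a nearer region in the same library. The far regions had 17.9, 15.8, 18.3 and 14.7 times the reads of unlisted windows 5 kb to either side. Listed accessible regions are bound to exceed unlisted windows, so only the comparison with nearer regions is informative. For nearer regions the same ratio was 9.45, 9.20, 10.8 and 10.3. The flanks of far regions themselves held 0.402 to 0.521 times the reads of the flanks of nearer regions. Of the far regions, 79.9% had a read in every library, against 87.8% of nearer ones, and all had at least 2 reads in total.

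Reads per region fell with distance, and the slope was steeper in the adult. Relative to all autosomal distal regions and without the chromosome 17 region, distal regions within 10 kb of a promoter region had 1.14, 1.09, 1.2 and 1.14 times the average reads in fetal 1, fetal 2, adult 1 and adult 2. At 200 to 300 kb, with 7900 regions, the ratios were 0.879, 0.918, 0.760 and 0.811. At 500 to 1000 kb, with 3869 regions, they were 0.719, 0.781, 0.521 and 0.612. For the 876 regions beyond 1000 kb they were 0.573, 0.642, 0.395 and 0.475. Both fetal libraries lay above both adult libraries in every bin over 100 kb, and below or level with both within 20 kb. At the threshold of 200 kb, the 1284 regions just inside it had 0.914, 0.978, 0.812 and 0.856 times the average. The 1155 regions just outside it had 0.860, 0.907, 0.759 and 0.805, lower in every library, and whether this is a step was not tested.

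**Figure D1:**
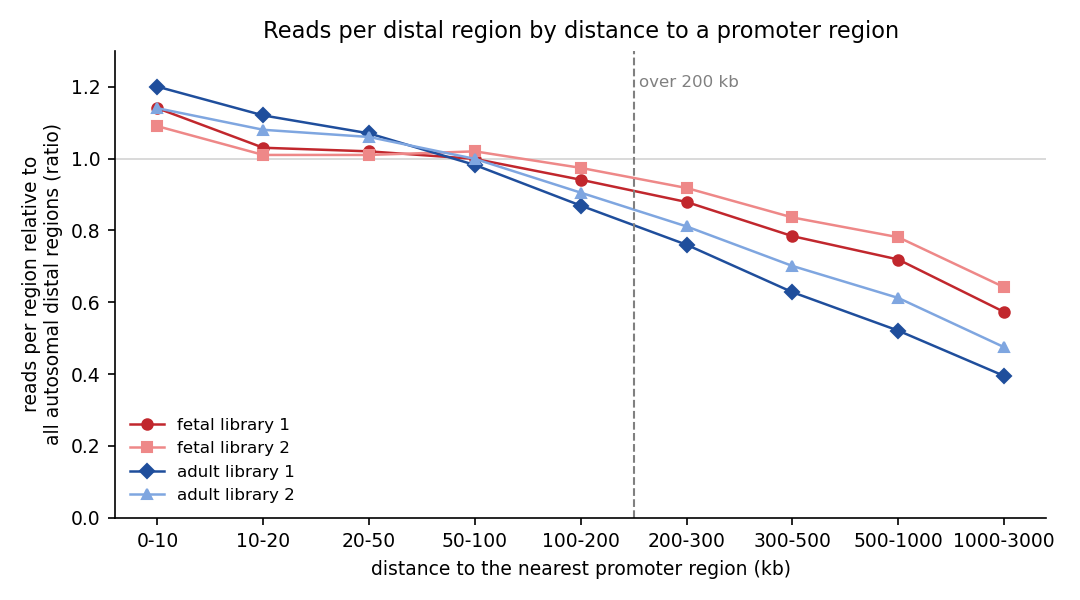
Mean reads per distal region, divided by the mean over all autosomal distal regions of the same library (vertical axis), in bins of distance to the nearest promoter region (horizontal axis, kb), without the chromosome 17 region beside Rn18s-rs5; 1 line per library. Right of the dashed line, over 200 kb, both fetal libraries lie above both adult libraries, and the last bin falls to 0.642 and 0.573 in the fetus and to 0.475 and 0.395 in the adult.

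Class 4 in the fetus and class 8 in the adult, both basal-like, had the highest far share of each library of their stage. In the fetus, class 4 (basal-like) had 12.5% and 13.0% in libraries 1 and 2, and class 12, which was raised at 3 basal, 3 luminal progenitor and 3 stromal markers and stays unnamed, had 12.1% and 12.6%. The luminal progenitor-like fetal classes were lower, with 11.3% and 11.6% in class 5 and 10.9% and 11.2% in class 9. Class 13 had 10.2% and 10.7%, and the stromal-like class 6 had 10.4% and 10.3%. Class 4 exceeded class 9 by 1.52 and 1.84 points within the same libraries, so this order was found within each library.

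In the adult, class 8 (basal-like) had 11.9% and 13.0%, the highest share in each adult library. The other basal-like class, class 1, had 10.4% and 10.6%, lower than class 8 by 1.49 and 2.40 points. Among luminal classes, class 3 had 9.95% and 10.2% and class 7 had 8.77% and 9.09%, although both carry the luminal progenitor markers. Class 11 had 9.84% and 10.5% and class 2 had 9.39% and 9.80%, both mature luminal-like. Class 14, raised at 6 basal and 6 mature luminal markers, had 9.84% and 11.0%, and class 10, raised at luminal progenitor and mature luminal markers, had 9.31% and 10.0%. The 10 adult nuclei of class 9 had 8.42% (exact 95% interval 8.09 to 8.75%).

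Pairs of classes with the same markers thus differed in each library in the same direction. The share of all reads that fell in promoter regions differed between them too: it was lower in class 8 (18.9% and 17.5%) than in class 1 (25.8% and 25.5%), in class 3 (21.4% and 20.9%) than in class 7 (27.7% and 26.4%), and in class 11 (21.1% and 18.6%) than in class 2 (25.7% and 23.3%). Over all 16 pairs of class and stage, far share and promoter share had a Pearson r of -0.245 and a Spearman rho of -0.149. The 16 include the 10 adult nuclei of class 9, from 1 library, with the lowest far share and the lowest promoter share of all. The correlation without that pair was not computed, so the strength of the relation among classes with 2 libraries is not known. The part of promoter reads in the difference was not tested. The chromosome 17 region moved in step as well, with 14.5% and 12.1% of the far reads of class 2 but 4.23% and 4.23% of those of class 11. Without that region class 11 still exceeded class 2, with 9.46% and 10.1% against 8.14% and 8.72%. Class 3 then had 9.62% and 9.87% and class 7 7.94% and 8.21%, and class 8 remained highest in the adult with 11.6% and 12.8%. The order of class 2 and the adult nuclei of class 6 turned, from 9.39% and 9.80% over 8.68% and 9.50% to 8.14% and 8.72% under 8.18% and 9.17%.

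Class 6, the stromal-like class, was the one class with at least 10 nuclei in all 4 libraries. Its far share was 10.4% and 10.3% in 23 and 33 fetal nuclei and 8.68% and 9.50% in 82 and 75 adult nuclei. The stages did not overlap within this class, as in the libraries as a whole. Every other class reached 10 nuclei in 1 stage only, apart from the 10 adult nuclei of class 9, so elsewhere stage and class makeup cannot be told apart.

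The most remote regions gave a partly different order. Regions over 500 kb from a promoter region held 2.77% and 2.97% of the autosomal distal reads of fetal class 4 and 2.35% and 2.85% of those of adult class 8. They held 2.59% and 2.87% in fetal class 12, 2.10% and 2.25% in fetal class 9, 2.05% and 2.29% in adult class 11, 1.87% and 1.90% in adult class 1, and 1.31% and 1.35% in adult class 7. Among class and stage pairs with 2 libraries, adult class 7 was lowest and fetal class 4 highest in mean, as for the regions over 200 kb. Class 11 exceeded class 1 here, which was not so over 200 kb. Class 12 and class 8, which are of different stages, overlapped at both distances.

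**Figure D2:**
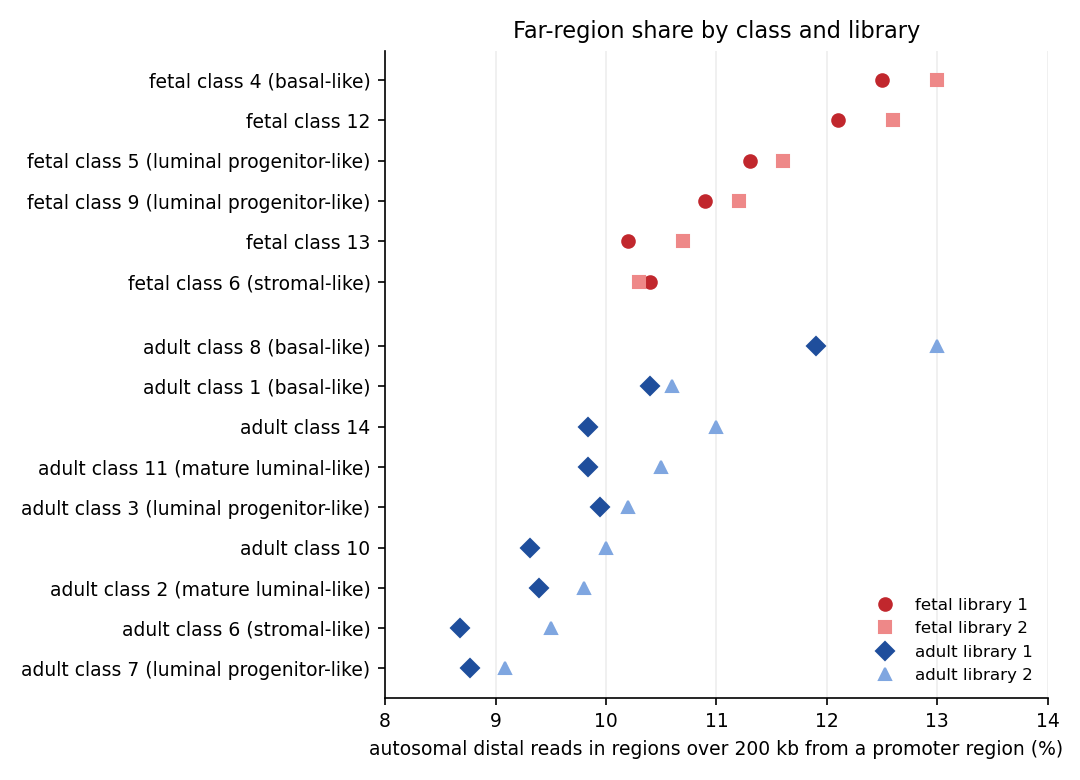
Share of autosomal distal reads that fell in regions over 200 kb from a promoter region (horizontal axis, %, starting at 8) for each class with at least 10 nuclei in both libraries of a stage; each point is 1 library. Fetal class 4 (12.5% and 13.0%) and adult class 8 (11.9% and 13.0%), both basal-like, stand highest in their stages.

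Single regions were compared between stages with edgeR's quasi-likelihood test over all distal regions. Of the far regions, 14546 averaged 10 or more reads a library and were tested, and 5881 (40.4%) were called at an adjusted p under 0.05, against 35.3% of all distal regions. More were higher in the fetus, 3516 (24.2% of those tested, against 16.6% of all distal regions), than in the adult, 2365 (16.3%, against 18.8%). The median log2 difference, fetal over adult, was 0.27 over tested far regions and -0.01 over all tested distal regions. The sign of the far median, and which stage had more far calls, depended on fetal library 2. Without that library, with 1 fetal library left, the median was -0.15 over far and -0.18 over all distal regions. Without adult library 2, with 1 adult library left, the medians were 0.51 and 0.02.

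The 6 largest fetal rises, by the rule for named regions, had at most 1.83 CPM in an adult library. The first, at chr12:89764468-89765467 inside Nrxn3, which encodes a neurexin, a synaptic adhesion protein, lies 973 kb from the nearest listed promoter region. It had 31.7 and 43.8 CPM in the fetus and 0.182 and 1.44 CPM in the adult, where CPM is reads per 1000000 reads in tested distal regions. Its log2 difference was 5.38 (SE 0.402, adjusted p 5.61e-13). The region at chr1:11787920-11788919, in A830018L16Rik, had 39.4 and 37.6 CPM in the fetus and 0.730 and 1.05 CPM in the adult, a log2 difference of 5.36. The others lay at chr7:137722759-137723758, 253 kb from Glrx3, with 5.19, at chr14:24871548-24872547, 375 kb from Rps24, with 4.86, at chr4:79011408-79012407, 800 kb from the receptor phosphatase gene Ptprd, with 4.69, and at chr7:69175543-69176542, 426 kb from Arrdc4, with 4.56. In none of the 6 did a fetal library overlap an adult one, which the rule required. The few adult reads came in part from basal-like nuclei, which had 14.4 and 7.43 CPM near Ptprd and 10.1 and 0.619 near Glrx3, against 53.8 and 67.4 and 24.5 and 25.9 in fetal class 4 (per 1000000 distal reads). With so few adult reads, the fold depended on single libraries: without adult library 1 or 2 the log2 difference was 4.64 or 7.42 at Nrxn3, 5.78 or 4.49 near Glrx3 and 6.23 or 3.49 near Arrdc4.

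Of the 6 largest adult rises, 5 had no read in either fetal library. The region at chr15:93860553-93861552, 264 kb from Prickle1, a planar cell polarity gene, had 25.5 and 24.1 CPM in the adult. It was at least 69.9-fold higher there, taking 3 reads over both fetal libraries as the limit that a count of 0 allows. The region at chr12:10902094-10903093, 187 kb from the potassium channel gene Kcns3, had 32.5 and 17.5 CPM and was at least 67.4-fold higher. At chr10:71895062-71896061, 509 kb from Ipmk, the bound was 66.3-fold, at chr8:10302567-10303566 in Myo16, a myosin gene, 47.5-fold, and at chr17:9751378-9752377, 81.7 kb from Pabpc6, 44.9-fold. The sixth, at chr6:47236968-47237967 in Cntnap2, had 2 fetal reads and was 107-fold higher in the adult by summed reads (counting interval 29.3 to 883). Both of these reads were in fetal library 1, so without it the region had no fetal read.

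The reads of these 6 regions came largely from the mature luminal-like classes 2 and 11. Those classes gave 165 and 121 of the 312 adult reads near Kcns3, 123 and 164 of the 324 near Prickle1, and 89 and 169 of the 307 near Ipmk. Adult basal-like and luminal progenitor-like nuclei had 0 to 6 reads per library in each of the 6. No fetal class was raised at the mature luminal markers as these classes were, so stage and lineage cannot be told apart here.

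Among the 6 far regions with the highest mean CPM, 2 passed the stage test, against 35.3% of all distal regions tested. After the chromosome 17 region (6670 and 4240 CPM in the fetus, 9110 and 7130 CPM in the adult, adjusted p 5.73e-05), the region at chr3:5860049-5861048 had 666 and 416 against 828 and 612 CPM (log2 -0.42, adjusted p 0.0218). The next ones, in Camk1d (205 and 132 against 251 and 190 CPM, adjusted p 0.0564), Kat6b (215 and 189 against 198 and 153 CPM, adjusted p 0.315) and Ehbp1 (155 and 124 against 161 and 148 CPM, adjusted p 0.457), did not pass the test, nor did the region at chr1:7397472-7398471, 224 kb from Pcmtd1 (145 and 142 against 158 and 145 CPM, adjusted p 0.708). The p-values are edgeR's.

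The regions farthest from any promoter region were sparse. The farthest with a read in every library lay on chromosome 15 at 2770 and 2660 kb, 681 and 567 kb from the cadherin gene Cdh9, with 2 to 18 reads in the fetal and 3 to 16 reads in the adult libraries. The first missed the minimum of 10 reads, and the second had a log2 difference of 0.51 (edgeR adjusted p 0.686). The third, at chr14:91088828-91089827 and 2620 kb from a promoter region, had 17.1 and 9.20 CPM in the fetus against 1.64 and 2.10 CPM in the adult (log2 2.72, edgeR adjusted p 1.38e-05). The nearest protein-coding gene to it was Pcdh9, a protocadherin gene, 1920 kb away.

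Between adult classes the far regions were called more often than distal regions at large, in all 3 comparisons. Only a part of the far regions had enough reads to enter, 20.2% for basal-like against luminal progenitor-like, 30.0% for luminal progenitor-like against mature luminal-like and 28.0% for basal-like against mature luminal-like, and a region that enters through 1 class is likely to differ. The counts are therefore descriptions. Basal-like classes 1 and 8 against luminal progenitor-like classes 3 and 7 gave 1770 calls among 3876 far regions tested (45.7%, against 38.3% of all distal regions), 1130 higher in basal-like (29.2%, against 19.3%) and 640 higher in luminal progenitor-like (16.5%, against 19%). Luminal progenitor-like against mature luminal-like gave 3531 of 5742 (61.5%, against 48.3%), 1489 higher in the first (25.9%, against 22.1%) and 2042 in the second (35.6%, against 26.1%). Basal-like against mature luminal-like gave 3596 of 5365 (67.0%, against 55.9%), 1599 (29.8%, against 21.9%) and 1997 (37.2%, against 34.0%). With no filter on reads that last split turned, with 3255 higher in basal-like and 3092 in mature luminal-like.

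Between the fetal classes the share called was near that of all distal regions, in a comparison with few reads (276670 in tested regions of class 4 in fetal library 1). Class 9 against class 4 gave 246 calls of 4093 tested (6.01%, against 5.31% of all distal regions). Of these 79 were higher in class 9 (1.93%, against 2.43%) and 167 in class 4 (4.08%, against 2.88%), and with no filter on reads the split was 116 to 114. The medians of the log2 difference were -0.17 over far and 0.06 over all distal regions.

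**Figure D3:**
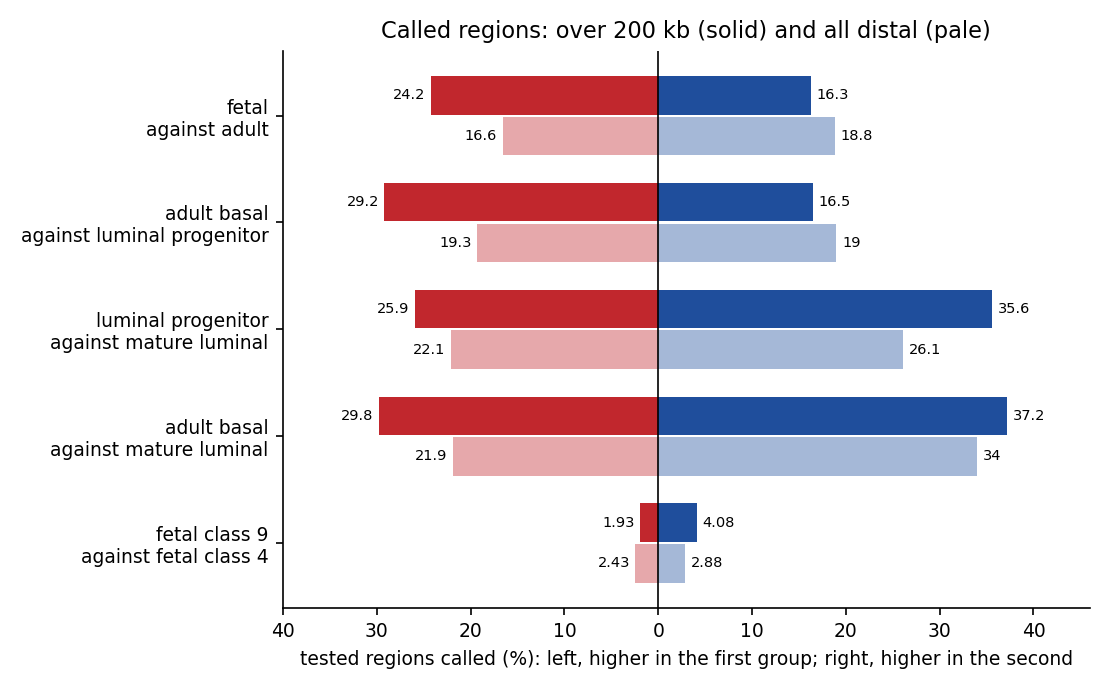
Percent of tested regions called at an edgeR adjusted p under 0.05 in 5 comparisons, leftward for higher in the first group and rightward for higher in the second, for regions over 200 kb from a promoter region (solid) and all distal regions (pale). Solid bars exceed pale ones on both sides in the comparisons with the mature luminal-like classes, and on 1 side in the other 3.

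The largest class differences were of regions open in 1 or 2 lineages and without a read in another. The region at chr12:9857478-9858477, 276 kb from the transcription factor gene Osr1, had 49.1 and 87.0 CPM in basal-like and 70.4 and 58.2 CPM in luminal progenitor-like nuclei, each from its own comparison, and no read in mature luminal-like nuclei. Against the limit of 3 reads it was at least 115-fold higher in basal-like and at least 108-fold higher in luminal progenitor-like nuclei. The converse pattern was found at chr12:10902094-10903093, near Kcns3, with 76.2 and 41.7 CPM in mature luminal-like and no read in luminal progenitor-like nuclei (at least 63.5-fold). This is a region that also had no read in the fetus.

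Further regions with no read in mature luminal-like nuclei lay at chr9:33151811-33152810, 394 kb from Ets1, with 63.8 and 89.6 CPM in basal-like nuclei (at least 126-fold), and in Cacna1d, a calcium channel gene, with 68.7 and 75.6 CPM (at least 114-fold). Regions near Actl7b (106 and 102 CPM, at least 60.4-fold), Gm826 (99.5 and 89.1 CPM, at least 54.4-fold) and Arid1b, a chromatin remodeller gene (94.9 and 88.7 CPM, at least 53.1-fold), were read in mature luminal-like and not in basal-like nuclei. Mature luminal-like nuclei also had 56.3 and 57.6 CPM at a region in Slc8a1, the sodium-calcium exchanger gene, with no read in luminal progenitor-like nuclei (at least 64.1-fold). Basal-like nuclei had 68.8 and 92.0 CPM in Eps8, an actin regulator gene, and 87.9 and 54.9 and again 47.7 and 56.6 CPM at a pair of regions near Xylt1, with no read in luminal progenitor-like nuclei (at least 88.7-, 67.9- and 56.3-fold). In the other direction, regions 2040 kb from Olfm4 and 275 kb from Jarid2, a Polycomb partner gene, had 48.3 and 45.8 and 42.5 and 40.8 CPM in luminal progenitor-like nuclei and no read in basal-like nuclei (at least 26.9- and 23.8-fold).

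Between the fetal classes, with fewer reads, the largest differences were as follows. A region 231 kb from Gm4791 on chromosome 9 had 49.8 and 28.5 CPM in class 9 and no read in class 4 (at least 13.1-fold, edgeR adjusted p 0.00265). A region at chr3:33539754-33540753, 259 kb from Ttc14, had 83.5 and 69.7 CPM in class 4 against 6.23 and 8.28 CPM in class 9 (log2 -3.30, SE 0.461, edgeR adjusted p 0.000787).

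The far regions with the printed starts were chosen as called in at least 1 comparison, so that they differ is no finding. Their lineage values are reads per 1000000 distal reads of the lineage, a larger base than the tested regions used for the stage values. The region with the Magi1 start, a scaffold protein of cell junctions, 368 kb from a listed promoter region, had 111 and 105 CPM in the fetus and 37.9 and 35.9 CPM in the adult (log2 1.54, SE 0.181, edgeR adjusted p 1.15e-08). In the adult it had 96.3 and 70.5 CPM in basal-like, 55.1 and 64.4 in luminal progenitor-like and 5.27 and 2.96 in mature luminal-like nuclei. At the region with the Nrxn3 start mature luminal-like nuclei were highest among adult lineages, with 81.1 and 67.7 CPM in mature luminal-like, 31.6 and 38.4 in basal-like and 9.52 and 16.1 in luminal progenitor-like nuclei. The start lies in the same gene as the fetal region named above, which had at most 5.57 CPM in any adult lineage.

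The Vav3 window, with an AP-1, an ETS and a SOX core, belongs to the gene of a guanine nucleotide exchange factor. Its region had 99.2 and 68.7 CPM in basal-like nuclei, above 35.6 and 29.7 in luminal progenitor-like and 25.1 and 23.1 in mature luminal-like nuclei. The Btbd11 window, also with AP-1 and ETS cores, was highest in luminal progenitor-like nuclei, with 86.7 and 80.0 CPM against 48.9 and 43.9 in basal-like and 11.8 and 9.17 in mature luminal-like nuclei. The Creb5 region, whose window has the highest GC content of the 6 (66.4%), had 77.6 and 65.6 CPM in basal-like, 58.1 and 53.6 in luminal progenitor-like and 20.7 and 15.4 in mature luminal-like nuclei. The Pde4b region, at the start of a cAMP phosphodiesterase gene, had 108 and 98.4, 83.7 and 106, and 58.4 and 46.4 CPM. The first 2 lineages overlapped there and both were above mature luminal-like nuclei (edgeR adjusted p 0.00105 and 0.000736).

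At the Mir125b-1 hairpin, 3 far regions within 1689 bases followed the same order of adult lineages. They lie 418 to 422 kb from a listed promoter region, at chr9:41579237-41580236, chr9:41580288-41581287 and chr9:41583447-41584446. In the fetus they had 21.4 and 23.4, 31.2 and 22.4, and 28.7 and 35.4 CPM, against 7.11 and 7.46, 8.75 and 12.3, and 4.56 and 7.99 CPM in the adult. All 3 were higher in the fetal libraries by edgeR's test, with log2 differences of 1.62, 1.3 and 2.33 (adjusted p 4.13e-05, 0.000332 and 4.36e-08). In the adult the region at 638 bases had 44.6 and 37.7 CPM in basal-like, 4.51 and 6.34 in luminal progenitor-like and 1.62 and 0.592 in mature luminal-like nuclei. In all 3 regions both adult basal-like values lay above every adult luminal value. By edgeR's test basal-like exceeded luminal progenitor-like nuclei at 638 and 1444 bases (adjusted p 1.77e-05 and 0.00228), while the region at 1689 bases, with 18.7 and 16.7 against 7.02 and 7.31 CPM, did not pass (log2 1.35, adjusted p 0.054). At 638 bases fetal class 4 had 34.3 and 24.3 CPM, below adult basal-like nuclei. At 1444 bases it was above them (31.8 and 46.2 against 17.3 and 26.0 CPM). At 1689 bases fetal class 4, with 2.45 and 25.9 CPM, overlapped them. Stage and class makeup cannot be told apart in the stage difference.

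The Mir100 hairpin, on the same chromosome, had 2 far regions with lower levels. The one over it had 2.14 and 5.49 CPM in the fetus and 5.65 and 5.24 CPM in the adult (log2 -0.37, edgeR adjusted p 0.592). Luminal progenitor-like nuclei had 11.5 and 9.75 CPM there, basal-like nuclei 5.75 and 4.95 and mature luminal-like nuclei 1.62 and 2.96. The difference between the luminal lineages passed the test (log2 2.21, edgeR adjusted p 0.00593), and that between basal-like and luminal progenitor-like nuclei did not (log2 -0.94, edgeR adjusted p 0.308). The region 910 bases away had 8.63 and 8.66 CPM in basal-like, 6.01 and 5.85 in luminal progenitor-like and 1.22 and 1.18 in mature luminal-like nuclei, the order seen at Mir125b-1, with no difference between the first 2 that passed the test (log2 0.61, edgeR adjusted p 0.543). The far region near Mir802 had 29.1 and 27.6 CPM in the fetus and 10.8 and 7.2 CPM in the adult (log2 1.67, edgeR adjusted p 1.01e-05).

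**Figure D4:**
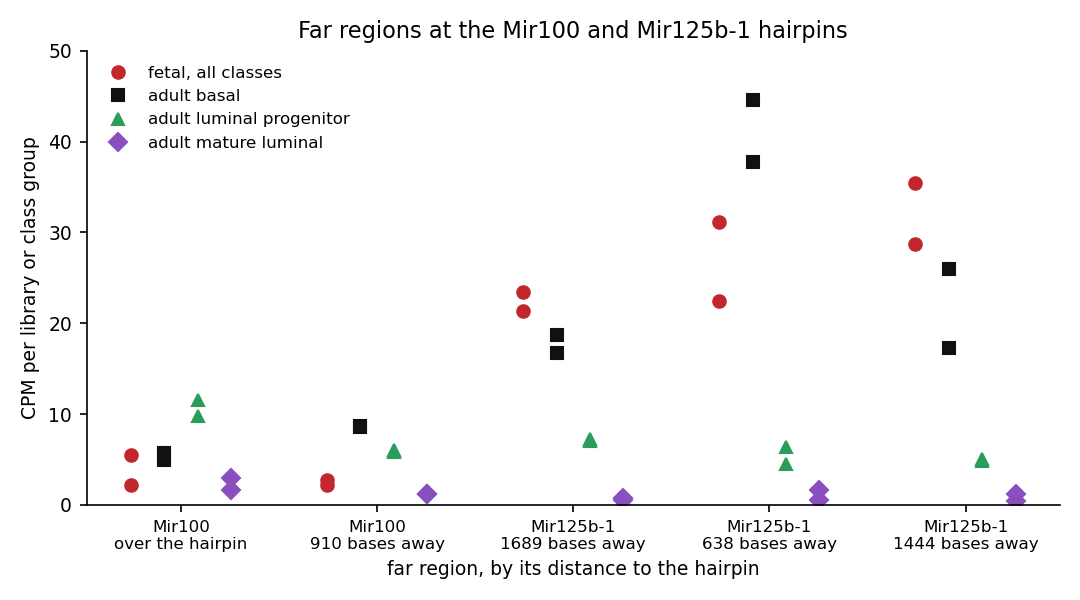
CPM (fetal libraries per tested distal reads, lineages per all distal reads) of the 5 far regions within 2 kb of the Mir100 and Mir125b-1 hairpins (horizontal axis, by distance to the hairpin) in the fetal libraries and in 3 adult lineages; each point is 1 library or the nuclei of a lineage in 1 library. At Mir125b-1 fetal and adult basal-like points stand above all luminal points, which at 638 bases are 6.34 or lower.

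Far regions fell in 1200 intervals between neighbouring promoter regions, of which 99 held 1 far region and 209 held 50% of them. The median interval held 11. Chromosome 13 had the highest share of far among its distal regions (22.0%), followed by chromosome 14 (20.2%), and chromosome 19 the lowest (7.64%). The 5 fullest intervals held 654 far regions (3.41%).

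The fullest interval, of 3.56 Mb on chromosome 2 with Celf2 and at its end Gata3, a factor of luminal fate, held 150. The interval of 1.41 Mb on chromosome 4 around Nfib, a nuclear factor I gene, held 145. That of 1.71 Mb on chromosome 16 with Trp63, the p63 gene that marks basal cells, held 129. No listed promoter region lies on an end of Nfib or Trp63, and 70 and 26 far regions lie inside these genes. Intervals of 1.56 Mb on chromosome 13 at Mast4, a kinase gene, and of 1.71 Mb on chromosome 6 between the factor genes Mitf and Foxp1 held 115 each.

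These intervals had unlike profiles. Summed over its far regions, the Nfib interval had 1410 and 1540 CPM in the fetus against 837 and 929 CPM in the adult, and of 128 regions tested 45 were higher in the fetus and 5 in the adult, against 16.6% and 18.8% of all distal regions tested. The Trp63 interval was level between stages (775 and 815 against 761 and 847 CPM), yet within the adult it had 1250 and 1190 CPM in basal-like, 608 and 699 in luminal progenitor-like and 747 and 776 in mature luminal-like nuclei. Its fetal class 4, with 1070 and 1050 CPM, was above class 9, with 747 and 773 CPM. The Mast4 interval was high in luminal progenitor-like (1310 and 1200 CPM) and basal-like (1150 and 1040 CPM) and low in mature luminal-like nuclei (683 and 643 CPM). Calls followed in part: at Trp63 17 of 38 regions tested were higher in basal-like and 3 in luminal progenitor-like nuclei, against 19.3% and 19% of all distal regions. At Mast4 27 of 52 were higher in luminal progenitor-like and 4 in mature luminal-like nuclei, against 22.1% and 26.1%.

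The Mitf and Foxp1 interval was likewise highest in basal-like nuclei, with 772 and 719 CPM against 473 and 475 in luminal progenitor-like and 571 and 605 in mature luminal-like nuclei. The Gata3 and Celf2 interval had 720 and 914, 757 and 776, and 513 and 574 CPM in these lineages. Its basal-like and luminal progenitor-like values overlapped.

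A list of 30 regulators of mammary and organ development was read by the far regions within 1 Mb of each gene. Of the 30, 26 had at least 1 far region and the median was 23.5, against 61.0% with any and a median of 2 over all 20661 autosomal protein-coding genes. The counts follow from the spacing of promoter regions, and 14 of the 30 genes have no listed promoter region on an end. Nfib had most with 145, followed by Trp63 with 124, Sox9 with 123 and Sox4 with 104, both SOX factor genes, Runx1 with 95, Gata3 with 79, the T-box gene Tbx3 with 71 and Zeb2 with 63. Nfib, Trp63, Runx1 and Zeb2 are among the 14 without a listed promoter region. Of their far regions, 70 lay inside Nfib itself, 26 inside Trp63, 19 inside Runx1 and 0 inside Zeb2. Sox10, Nfix, Elf5 and Ehf had none.

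Around Id4, Pthlh, Trp63 and Gata3 the far regions had their highest adult sums in basal-like nuclei. Within 1 Mb of Id4, an inhibitor of basic helix-loop-helix factors that is known for its role in basal cells, 21 far regions summed to 325 and 328 CPM in basal-like, 99.2 and 99.5 in luminal progenitor-like and 31.2 and 41.4 in mature luminal-like nuclei. Of 11 tested, 8 were higher in basal-like than luminal progenitor-like nuclei and 0 lower, against 19.3% and 19% of all distal regions. At stage level 7 of 16 were higher in the fetus and 0 in the adult, against 16.6% and 18.8%. The 14 far regions near Pthlh, the parathyroid hormone-related peptide of the mammary bud, had 151 and 104, 77.7 and 74.1, and 31.6 and 30.2 CPM in the same order of lineages. The 124 near Trp63 had 1220 and 1160, 597 and 682, and 720 and 748 CPM. Gata3 was named above as a factor of luminal fate, yet the 79 near it had 526 and 709, 387 and 431, and 391 and 428 CPM.

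Around Esr1 mature luminal-like nuclei had the highest sums. The 31 far regions near Esr1, the estrogen receptor gene, had 368 and 366 CPM in mature luminal-like, 174 and 192 in basal-like and 116 and 149 in luminal progenitor-like nuclei. Of 15 tested, 12 were higher in mature luminal-like than in luminal progenitor-like nuclei and 0 lower, against 26.1% and 22.1% of all distal regions. The 9 near Pgr, the progesterone receptor gene, showed less, with 36.9 and 46.7, 21.6 and 27.2, and 31.1 and 26.8 CPM. Prlr, the prolactin receptor gene, had 1 far region, which was not tested in any comparison, and Foxa1 had 11 with 44.2 and 41.1 CPM in mature luminal-like nuclei, within the range of basal-like nuclei (30.2 and 47.0 CPM).

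Around several homeobox and signal genes mature luminal-like nuclei also had the highest adult sums. Near Msx2, a homeobox gene, 17 far regions had 216 and 225 CPM in mature luminal-like nuclei against 51.8 to 67.8 in the other 2 lineages, and 133 and 148 CPM in the fetus. Near Meis1, another homeobox gene, 34 had 154 and 158 CPM there against 30.2 to 46.6 elsewhere in the adult, and 120 and 145 CPM in the fetus. Near Bmp4 and Fgf10, genes of secreted signals, 13 and 12 far regions had 138 and 117, and 58.4 and 60.6 CPM in mature luminal-like nuclei. The basal-like and luminal progenitor-like values were 20.1 to 38.0 CPM near Bmp4 and 3.90 to 11.5 CPM near Fgf10. Near Tbx3, mature luminal-like nuclei had 341 and 313 CPM, above the other adult lineages (194 to 279 CPM) and below both fetal libraries (477 and 492 CPM).

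Around a further group of genes the far regions had their lowest sums in mature luminal-like nuclei. Near Nfia the 37 far regions had 411 and 399 CPM in the fetus, 368 and 412 in luminal progenitor-like, 237 and 269 in basal-like and 170 and 181 in mature luminal-like nuclei. Near Zeb2, a zinc finger gene known from mesenchymal transitions, 63 far regions had 474 and 460 CPM in the fetus and 165 and 221 CPM in mature luminal-like nuclei. Near Sox4 104 far regions had 866 and 911 CPM in the fetus and, in the adult, 1020 and 1070 in basal-like, 726 and 767 in luminal progenitor-like and 517 and 492 in mature luminal-like nuclei. Near Runx1 the basal-like and luminal progenitor-like values (1010 and 882, and 892 and 791 CPM) met, and mature luminal-like nuclei had 578 and 495 CPM. Irx3, a homeobox gene, showed this only by a small margin, with 343 and 312 CPM in mature luminal-like nuclei against 344 to 397 in the other 2 adult lineages. Sox9, Sox11, Lef1, Igf1r, Lin28b, Hmga2 and Tcf4 complete the list, with 9 to 123 far regions each.

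**Figure D5:**
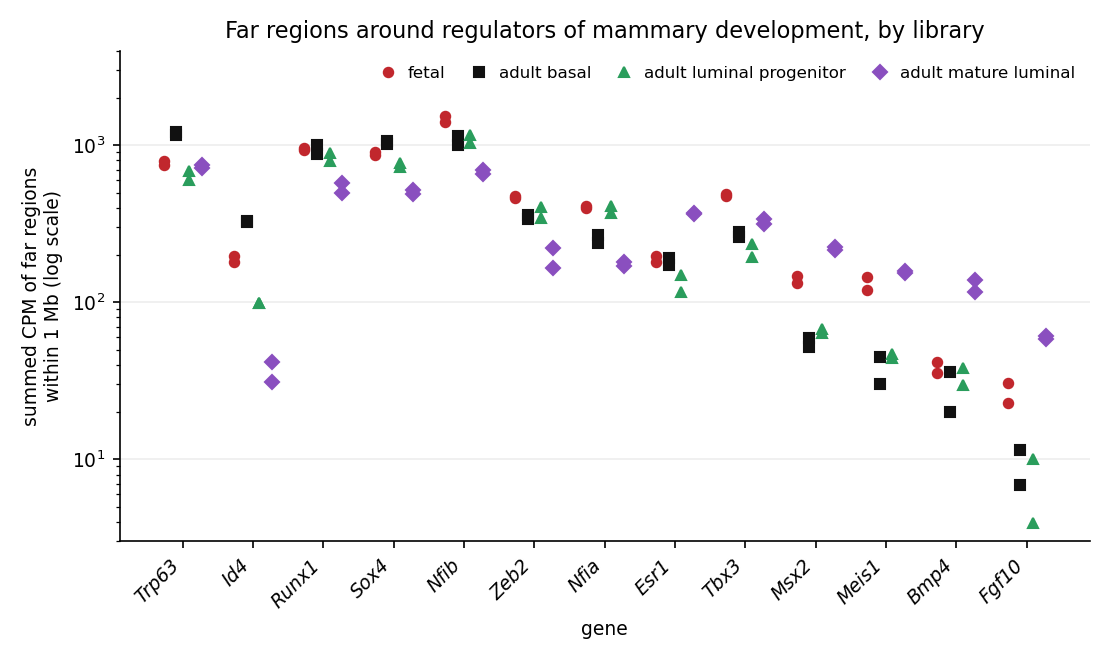
Summed CPM (reads per 1000000 distal reads, log scale) of the far regions within 1 Mb of 13 of the 30 listed genes, chosen after their values were seen to show the kinds of order in the text; each point is 1 library, over all fetal nuclei or over an adult lineage. At Id4 basal-like nuclei are highest (325 and 328), and at Esr1, Msx2, Meis1, Bmp4 and Fgf10 mature luminal-like nuclei exceed the other adult lineages.

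Far regions were linked less often to other regions. In the authors' deposited table of Cicero co-accessibility scores, which rate how 2 regions are open in the same nuclei, 29.7% of 19114 far regions had a partner at a score of at least 0.1, against 38.3% of nearer regions. Far regions also had fewer reads, with a median of 63 over all libraries against 85, and the part of reads in these shares was not tested. At least 1 other far region was a partner of 23.5% of far regions, and at least 1 far region was a partner of 3.97% of nearer regions. The rule partly sets this contrast too, since far regions lie together in intervals. Distal partners lay at a median of 141 kb for far and 121 kb for nearer regions. A promoter region was a partner of 621 far regions (3.25%), against 13.5% of nearer regions, a gap that the rule partly sets, since it keeps far regions over 200 kb from every promoter region. Of the 4701 far regions beyond 500 kb 0 had one, and of the 14413 within 500 kb 4.31% did. The longest far-to-promoter pair spanned 495 kb, so the 0 is not read as a lack of links. How far apart the scored pairs could lie was not examined.

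The 720 far-to-promoter pairs spanned 201 to 495 kb, with a median score of 0.156. The strongest, chosen after their scores were seen, tied a pair of regions near Myo16 to a promoter region 275 and 352 kb away (scores 0.614 and 0.549). Others tied far regions to promoter regions at an end of Slit3, a guidance cue gene, 295 kb away (0.533), of Thbs1, which encodes thrombospondin, 331 kb away (0.507), and of Ctnnd2, which encodes a catenin, 212 kb away (0.503). The Thbs1 and Ctnnd2 regions rose in the fetus (log2 0.64 and 0.96, edgeR adjusted p 0.00207 and 0.000234) and the Slit3 region had a log2 difference of -0.16 (edgeR adjusted p 0.737).

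The far regions with most partners lay in Nrg1, in the Etv6 surroundings and in Nav2. The region in Nrg1, the gene of a ligand for ERBB receptors, had 67 partners, 13 of them far and 1 a promoter region, and 31.7 and 45.7 CPM in the fetus against 17 and 24.2 in the adult (log2 0.93, edgeR adjusted p 0.00194). Per lineage it had 119 and 99.6 CPM in adult basal-like and 90.5 and 107 in fetal class 4 nuclei, which overlap, and 0.811 to 4.39 in the adult luminal lineages. The region 59.1 kb from Etv6, an ETS factor gene, had 47 partners, none a promoter region, and 102 and 115 against 29.5 and 26.7 CPM (log2 1.96, edgeR adjusted p 1.45e-10). The region in Nav2 had 45 partners, 30 of them far, and was higher in the adult, with 61.1 and 60.9 CPM against 15.8 and 12.8 in the fetus (log2 -2.13, edgeR adjusted p 1.78e-09).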

How the data were processed

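Reads of 2 fetal and 2 adult single-nucleus ATAC-seq libraries were counted in the authors' region lists. Per the submitters' processing notes Bowtie2, MACS2 and bedtools were used on mm10, with versions not given in the sources used here. The deposited files list read positions with barcodes, without any shift made here, the barcodes kept as nuclei, and for each nucleus a deposited count of reads, which equalled the listed reads in all nuclei, and its cluster. Region coordinates are the authors'. The co-accessibility score was deposited by the authors for pairs of regions. No doublet caller was run.

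A read counted where it overlapped a region by at least 1 base, and reads were summed per library or per library and class group, since nuclei are not replicates. edgeR 4.0.16 in R 4.3.3 (quasi-likelihood test, TMM factors) was fitted over the distal regions that averaged 10 or more reads, with Benjamini-Hochberg adjustment. The SE is the log2 difference over the square root of F. CPM of the 2 groups of a comparison uses the TMM-adjusted reads of tested regions. Summed CPM, and the lineage CPM of regions with printed starts or hairpins, use all distal reads of the group. The biological replicates are as the labels name them. In a simulation of the stage comparison over 120749 regions, 188 of 200 regions changed 4-fold were recovered (94.0%), with 10 false calls. The dispersion was fixed, and the changed regions were drawn from those with a mean of at least 50 reads. Of the 14546 far regions tested, 2506 reached that mean, and recovery at lower reads was not simulated.

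A marker was called raised where its log2 level was at least 0.5 above its mean over classes. Named regions were the 6 largest changes each way between stages (mean of at least 50 reads, no overlap), the 3 largest each way per class comparison (mean of at least 20 reads), the 6 highest, the 3 farthest and the 3 with most partners. Of these, 1 on chromosome 18 and some that repeat a pattern are left to counts. Genes of the list were measured from their spans in the RefSeq table (GRCm38.p6), since starts with strand were given for a part of the genes, and the region sequences could not be read without a genome. RefSeq starts on chromosome 18 were not used here, so counts of starts and windows cover the other chromosomes. Members and lists were chosen with earlier results of these data known.

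The labels give no tie between same-numbered libraries of the stages, and their deviations from the stage means had a correlation of 0.0399, so the numbers were taken as names. In class comparisons both sides come from the same library, with correlations of 0.0194 to 0.0400, and the fit with the library as a block is given in the closing section.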

Additional observations from a re-analysis of the deposited data

How the results depend on the processing

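The stage difference in far share stayed positive under every alternative run: 0.605 points for regions over 500 kb, 2.63 over 100 kb, and 1.27 to 2.02 when 1 library was left out. The gap between the highest and lowest class was 3.81 points, 6.17 over 100 kb and 1.54 over 500 kb, 4.37 with each nucleus counted once per region, and 4.42 without the region with most reads, an alternative chosen after seeing the data, as was that with flank reads taken off (3.98 points). In each of these, among classes with 2 libraries, class 4 was highest and class 7 lowest.

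In the stage comparison the median log2 difference over far regions ran from -0.15 to 0.51 when 1 library was left out. Percent called among far regions in that comparison was 62.3 with a mean of at least 50 reads (1561 calls against 5881) and 24.4 by DESeq2 (3544 calls). With the stricter filter it was 44.2 (180 calls against 1770) for basal against luminal progenitor, 62.0 (443 against 3531) for luminal progenitor against mature luminal, 70.1 (350 against 3596) for basal against mature luminal and 10.5 (34 against 246) for fetal class 9 against 4. With no filter the same were 6.78, 29.4 (5452 calls), 34.2 (6347 calls) and 1.24, over more regions tested. DESeq2 gave 4.83 (144 calls) in the fetal comparison. Shares of all distal regions called are not given here for these filters, for DESeq2 or for the block below. These percents therefore do not show whether the excess of calls over all distal regions held.

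With the replicate block the percent called was 37.8 for stage and 40.5, 57.4, 55.0 and 6.28 for the class comparisons, so no count moved by 1.5 times. Leaving out a library in a class comparison leaves 1 sum against 1, with no residual degrees of freedom, and was not run. The 36 named region results kept direction in all 223 alternatives that could be fitted. They were picked from these data as the largest called changes without overlap, so this says nothing about far regions in general. The fold of regions with few or no reads in a group moved. Near Glrx3 the log2 difference was 6.44 by read midpoints (5.19 as reported). With single libraries left out the fold moved by over 1.5 times at Nrxn3, Glrx3, Arrdc4 and Cntnap2. With 2 libraries a group, and the fetal library 1 shallow, small differences and regions under 10 reads could not be judged.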

Other observations

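Clusters of microRNA hairpins lie among the far regions, with 7 of 23 hairpins in a cluster on chromosome 12 and 5 in the Mir344 family. Of the 31 far regions within 2 kb of a hairpin, 25 were tested between stages by edgeR, and 11 were higher in the fetus and 1 in the adult, against 24.2% and 16.3% of far regions and 16.6% and 18.8% of all distal regions. In the cluster of chromosome 12 (Mir882 to Mir3072), 3 of 4 tested regions were higher in the fetus. The region over Mir329 had 14.5 and 5.33 CPM in the fetus and 1.46 and 0.655 CPM in the adult (log2 3.17, edgeR adjusted p 6.69e-05).

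In the Mir344 family on chromosome 7, 3 of 5 tested regions were higher in the fetus and 1 in the adult. The region over Mir344-2 had 6.85 and 8.56 CPM in the fetus and 0.365 and 1.70 in the adult (log2 2.80, edgeR adjusted p 0.000276). These regions have few reads, and the microRNAs themselves were not measured.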
